A study of Homo sapiens with 12 samples.

Results

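The comparison described here sets the 3 arrays of HEL cells that received the Jak2-10 short hairpin RNA against the 3 arrays of HEL cells that received the Jak2-9 hairpin, 6 of the 12 arrays in the series. The 6 arrays were chosen by their titles alone, and all 11940 genes with a probe set were compared. HEL is an established human leukaemia line, and every group carries its JAK2V617F allele, homozygous per the series design. Each hairpin was delivered by a lentivirus in a puromycin-selectable pLKO vector. The other 6 arrays are the controls, 3 with a hairpin against luciferase (Luc) and 3 labelled GFP, which the labels call both a vector and a hairpin control. The labels give neither the time after transduction nor the JAK2 protein level, and they do not say whether replicates were separate cultures. The p-values therefore rest on array-to-array spread that could be technical alone.

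A short hairpin RNA is processed in the cell to a small guide strand, which pairs with the target transcript and leads to its cleavage. The guide can also lower other transcripts that share only a short seed match with it, and each hairpin has its own seed. For that reason a knockdown is commonly made with more than 1 hairpin against the same gene, so that effects of the target and effects of a single hairpin can be set side by side. JAK2 is the tyrosine kinase that relays cytokine receptor signals to STAT proteins, and the mutant form is active without cytokine. The hairpin sequences were not used here, so no transcript was examined for a seed match.

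Values are log2 of the deposited RMA intensity, where RMA is a method that subtracts background, equalises the arrays and summarises the probes of each probe set. A difference is the Jak2-10 mean minus the Jak2-9 mean, so a positive value is higher with Jak2-10. A gene was called at a Benjamini-Hochberg adjusted p under 0.05 over all genes in a linear model (limma) of the 4 groups. The main results are given with all 12 arrays and without Jak2-9 replicate 1, because that array stood apart. It correlated with the other Jak2-9 arrays at 0.986 to 0.987, against 0.997 between those 2 and at least 0.995 between arrays of every other group. On it 253 genes (2.12%) were over 2-fold away from the average of its 2 companions, 225 of them lower and 28 higher, while no other array had more than 13 such genes. The ratio of the 5′ to the 3′ probe set of ACTB, which falls when transcripts are shortened, was lowest there, at -0.42 on the log2 scale against -0.15 to -0.13 on the other Jak2-9 arrays and -0.38 to -0.19 on the controls. The genes lower on that array spanned a median of 90.5 kb in the RefSeq annotation, the genes higher on it 16.2 kb and all genes 28.7 kb. The erythroid and megakaryocytic character of HEL cells was present on all arrays: HBG1 (gamma globin) lay between 14.62 and 14.77 and ITGA2B (platelet integrin alpha IIb) between 10.18 and 10.90. The monocyte marker CD14 lay between 4.24 and 5.01 and the T cell marker CD3E between 4.16 and 4.74. Not all markers of other lineages were that dim. CD2, also a T cell marker, lay between 8.79 and 9.10 on the 12 arrays. The myeloid marker ITGAM lay between 6.407 and 6.895 and the B cell marker CD79A between 5.37 and 6.31.

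JAK2 is the gene that both hairpins target. Its brighter probe set read a log2 intensity of 10.06, 10.04 and 9.78 on the Jak2-10 arrays and 9.37, 9.89 and 10.09 on the Jak2-9 arrays, with a control mean of 10.54. All 6 hairpin arrays lay below the 6 control arrays, and the ranges of the hairpins overlapped. The mean intensity was 998.2 ± 103 with Jak2-10, 899.5 ± 217 with Jak2-9 (SD, n = 3 per group) and 1487 ± 111 in the controls (SD, n = 6). The difference between hairpins was 0.18 ± 0.16 (SE; 95% interval -0.16 to 0.51; limma, adjusted p = 0.648), and the exact two-sided permutation p was 0.70, where the smallest possible with 3 arrays against 3 is 0.10. At the dimmer probe set the values were 8.19, 8.22 and 8.06 with Jak2-10 and 7.11, 8.35 and 8.40 with Jak2-9. There Jak2-9 replicate 1 was the lowest of the 6 hairpin arrays and the other Jak2-9 arrays were the highest. Without that array the difference at the brighter probe set was -0.03 ± 0.12 (SE; -0.28 to 0.21; limma, adjusted p = 0.983) and at the dimmer one the means differed by -0.22. The JAK2 levels of the hairpins were thus not distinguishable at the transcript level, and their order turned on 1 array. Against the controls, with all arrays, JAK2 was called with Jak2-9 (-0.75, limma, adjusted p = 0.00768). With Jak2-10 it missed the threshold (-0.58, limma, adjusted p = 0.0824).

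**Figure D1:**
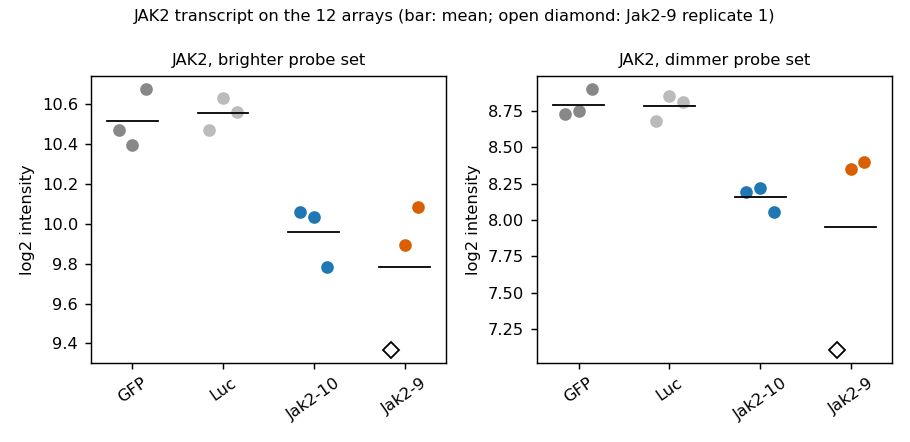
The log2 intensity of JAK2 is plotted for each array at its brighter and dimmer probe set, with a bar at the group mean and an open diamond for Jak2-9 replicate 1. Every hairpin array lies below every control array, and Jak2-9 replicate 1 holds the lowest value in both panels (9.37 and 7.11).

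No gene differed between the hairpins past the threshold. Of 11940 genes 0 were higher and 0 lower with Jak2-10 (0% each; limma, lowest adjusted p = 0.499), and without Jak2-9 replicate 1 the counts were again 0 and 0 (0%; lowest adjusted p = 0.446). At an unadjusted p under 0.05 the fit of 12 arrays held 299 genes higher with Jak2-10 (2.5% of all genes) and 875 lower (7.33%), and the fit without the array 219 (1.83%) and 287 (2.4%). The 3 Jak2-10 arrays lay entirely above the 3 Jak2-9 arrays for 356 genes (2.98%) and entirely below for 1043 (8.74%), 1399 in all (11.7%). Against Jak2-9 replicates 2 and 3 alone these counts were 804 (6.73%) and 1476 (12.4%). Ranges separate more readily when a group holds fewer arrays. The rise in these counts is therefore not a sign that more genes differed without the array. Between the 2 control groups, Luc against GFP, 0 genes were called as well, 229 (1.92%) had an unadjusted p under 0.05 in the fit of 12 arrays and 491 (4.11%) in the fit without Jak2-9 replicate 1, close to the 506 between the hairpins in that fit, and 428 (3.58%) and 702 (5.88%) lay entirely above and below, 1130 in all (9.46%). The median difference over all genes was -0.04 with 12 arrays and -0.03 without the array.

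The intervals set a bound on what could have been missed. With all arrays the 95% interval of the difference lay within 2-fold in both directions for 11841 genes (99.2%) and within 1.5-fold for 10285 (86.1%). Without Jak2-9 replicate 1 it lay within 2-fold for all but 2 genes and within 1.5-fold for 11547 (96.7%). The largest estimated difference was 0.94 with 12 arrays and 0.62 without the array, and 45 and 5 genes respectively had an estimate beyond 1.5-fold. As read on these arrays, the 2 hairpins thus differed by less than 2-fold at nearly every gene, while smaller differences were not resolved for single genes. No gene was left out as dim, and RMA compresses differences of dim probe sets. The bound therefore says little about genes that were dim on every array.

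**Figure D2:**
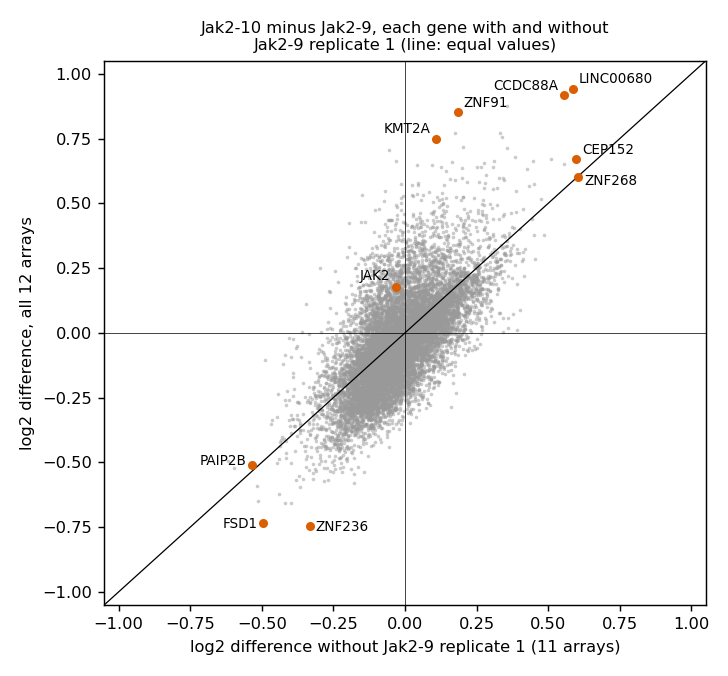
Each point is 1 of 11940 genes, with the Jak2-10 minus Jak2-9 log2 difference without Jak2-9 replicate 1 on the horizontal axis and with all 12 arrays on the vertical axis; the diagonal marks equal values. LINC00680, CCDC88A, ZNF91 and KMT2A lie well above the diagonal, while CEP152, ZNF268 and PAIP2B lie near it.

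Since the rule for naming genes by called differences gave none, the genes of lowest unadjusted p were taken after their values were seen, as a description. CEP152, a scaffold protein of centriole duplication, was at 5.74, 5.66 and 5.71 with Jak2-10 and 4.89, 5.08 and 5.13 with Jak2-9, against a control mean of 6.86. The Jak2-10 arrays lay entirely between the Jak2-9 arrays and the controls, and the difference was 0.67 ± 0.13 (SE; unadjusted p = 1.59e-04; limma, adjusted p = 0.499). A dimmer probe set of CEP152 gave 0.15 ± 0.18 (SE). ZNF268, a KRAB zinc finger protein, was at 6.51, 6.62 and 6.43 with Jak2-10 and 5.93, 5.88 and 5.95 with Jak2-9. Here the Jak2-10 arrays lay within the control range, 6.26 to 6.76, and all Jak2-9 arrays below it, a difference of 0.60 ± 0.13 (SE). GLIPR1, a secreted CAP domain protein, was at 6.55, 6.25 and 6.24 with Jak2-10 and 5.53, 5.77 and 6.03 with Jak2-9. All its Jak2-9 arrays lay below the controls, 6.16 to 6.42, and none of its Jak2-10 arrays did.

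CAB39L, a scaffold of the LKB1 kinase complex, was at 5.18, 5.25 and 5.38 with Jak2-10 and 4.84, 4.91 and 4.74 with Jak2-9. The controls lay between 4.77 and 4.96, below all Jak2-10 arrays, and 1 Jak2-9 array was slightly below them (difference 0.44 ± 0.09, SE). Among the lowest p without Jak2-9 replicate 1 but not with it was FBP1, the gluconeogenic fructose-bisphosphatase, at 5.24, 5.48 and 5.51 with Jak2-10 and 5.18, 4.98 and 4.94 with Jak2-9. Its Jak2-10 arrays lay above all controls, 4.94 to 5.06, as did Jak2-9 replicate 1. PAIP2B, an inhibitor of the poly(A)-binding protein in translation, had the lowest p of all genes. It was at 5.09, 5.08 and 5.14 with Jak2-10 and 5.57, 5.63 and 5.65 with Jak2-9, with no overlap. The controls fell between, from 5.19 to 5.54, and the difference was -0.51 ± 0.09 (SE; unadjusted p = 5.12e-05; limma, adjusted p = 0.499; -0.53 and adjusted p = 0.446 without Jak2-9 replicate 1).

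TRIM16, a ubiquitin ligase, was at 5.47, 5.30 and 5.32 with Jak2-10 and 5.94, 5.75 and 5.85 with Jak2-9. SFT2D2, a vesicle transport protein, was at 5.27, 5.72 and 5.39 with Jak2-10 and 6.20, 5.86 and 6.09 with Jak2-9. In both the Jak2-9 arrays lay above all 6 controls, with differences of -0.49 and -0.59. CLUAP1, a protein of intraflagellar transport, had a difference of -0.52 (-0.60 without Jak2-9 replicate 1), and 0.08 at a dimmer probe set. None of these genes reached the threshold in either fit.

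**Figure D3:**
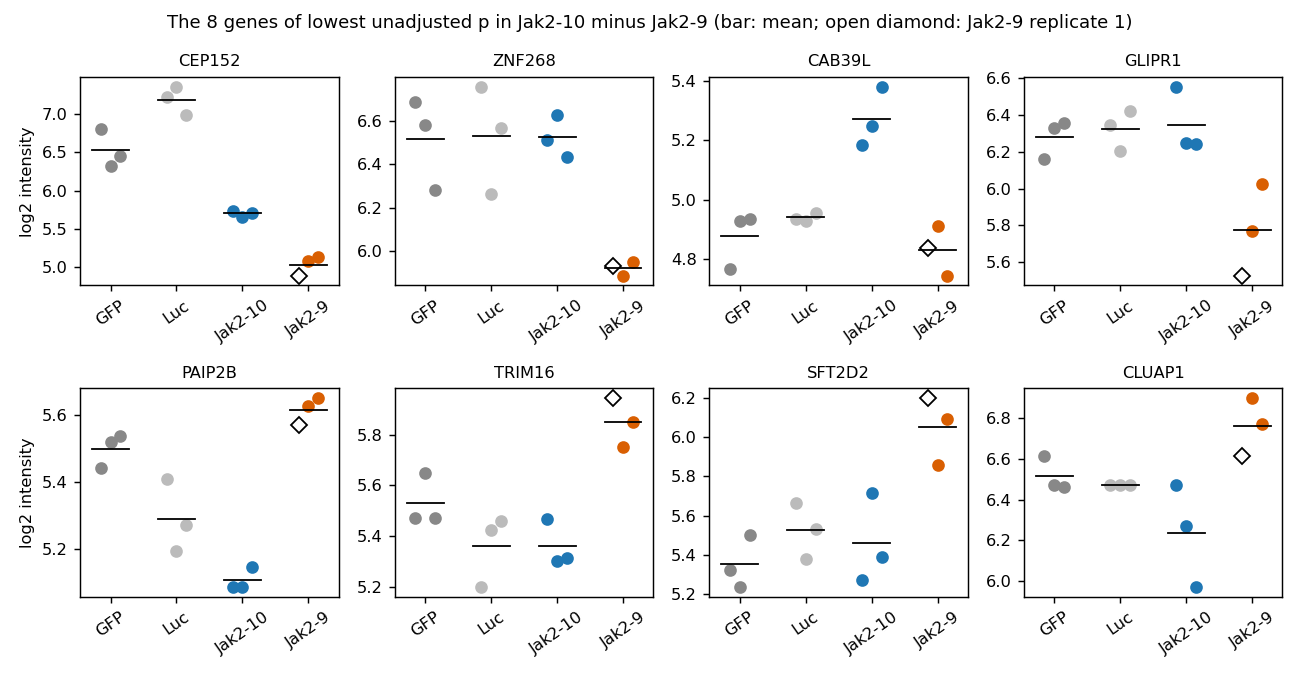
The log2 intensity of the 8 genes of lowest unadjusted p is plotted for each of the 12 arrays, with a bar at each group mean and an open diamond for Jak2-9 replicate 1. The Jak2-10 and Jak2-9 arrays do not overlap in any panel; CEP152 is below the controls with both hairpins, ZNF268 and GLIPR1 only in the Jak2-9 arrays, and CAB39L is above the controls only in the Jak2-10 arrays.

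The largest differences by size moved with Jak2-9 replicate 1. Among the 100 genes with the largest difference, taken after their values were seen, that array was the most extreme of the 6 hairpin arrays for 98, against 64.2% of all genes. Their median size was 0.58, and that of the same 100 genes was 0.26 without the array. The 100 largest differences without the array had a median size of 0.41, and 22 genes were in both sets. KMT2A, a histone H3 lysine methyltransferase, was at 8.63, 8.66 and 8.54 with Jak2-10 and 6.58, 8.56 and 8.45 with Jak2-9. The other Jak2-9 arrays overlapped the Jak2-10 arrays, and the difference went from 0.75 to 0.11 without replicate 1. ZNF91, a zinc finger repressor of retroelements, was at 8.19, 8.14 and 8.10 with Jak2-10 and 5.95, 7.71 and 8.21 with Jak2-9, a difference of 0.85 that became 0.18. MAN2A1 (a Golgi mannosidase), BPTF (a nucleosome remodelling factor) and HELLS (a chromatin remodeller) had differences of 0.77, 0.88 and 0.72, and of 0.17, 0.36 and 0.20 without the array. CCDC88A, the actin-binding protein girdin, was at 7.28, 7.15 and 7.32 with Jak2-10 and 5.61, 6.50 and 6.89 with Jak2-9. It kept a difference of 0.56 without the array, and its Jak2-9 arrays did not overlap the Jak2-10 arrays; a dimmer probe set gave 0.15 ± 0.18 (SE). In the other direction FSD1, a microtubule-associated protein, was at 6.29, 6.45 and 6.28 with Jak2-10 and 7.55, 6.87 and 6.80 with Jak2-9. All Jak2-9 arrays were higher, and the difference was -0.73, or -0.50 without the array.

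Transcripts that responded to both hairpins were examined for the depth of their response. The mean of both hairpins minus the controls called 166 genes lower (1.39%) and 52 higher (0.436%), a choice that does not use the difference between hairpins but rests on the same arrays. The Jak2-9 mean was the less certain of the hairpin means, with its stray array or with fewer arrays without it. The choice can therefore favour genes at which Jak2-9 strayed further, and the counts and medians below only describe the genes chosen. Of the 166 genes 140 were lower with Jak2-9 than with Jak2-10, with a median difference of 0.16, against -0.04 over all genes, for which 4831 of 11940 were lower with Jak2-9. Without Jak2-9 replicate 1 the same 166 held 111 lower with Jak2-9 and a median of 0.06. Their median change from the controls was -0.74 with Jak2-9, -0.56 with Jak2-9 without replicate 1, and -0.53 with Jak2-10. Of the 52 risen genes 48 were higher with Jak2-9, with a median difference of -0.26; without the array 9 of the 52 were lower with Jak2-9 and the median was -0.14. With the 11 remaining arrays used for the choice as well, 196 genes fell and 75 rose, with median differences of 0.06 and -0.12. None of these genes differed past the threshold between hairpins, so the order of the hairpins is one of counts and medians. The part of Jak2-9 replicate 1 in the remaining difference was not tested beyond leaving it out.

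Called in all 4 comparisons of 1 hairpin with 1 control were 15 genes, all of which fell. With Jak2-9 13 of them were lower, both with all arrays and without replicate 1, against 4831 and 4846 of all 11940 genes. For 6 the Jak2-10 arrays lay entirely above the Jak2-9 arrays, against 2.98% of all genes. These 15 genes were chosen on the same hairpin arrays. Their Jak2-9 and Jak2-10 values share the control arrays and are given side by side. POLQ, the DNA polymerase of theta-mediated end joining, was at 5.07, 5.196 and 4.93 with Jak2-10 and 4.87, 5.05 and 5.02 with Jak2-9. The hairpin arrays overlapped, and the difference was 0.08 ± 0.18 (SE; -0.29 to 0.46), beside changes from the controls of -2.40 with Jak2-10 and -2.49 with Jak2-9. LINC00680, a long noncoding RNA, was at 6.48, 6.34 and 6.44 with Jak2-10 and 4.76, 5.45 and 6.22 with Jak2-9. The Jak2-9 arrays were all lower but spread over more than the gap to Jak2-10, and the difference was 0.94 ± 0.26 (SE; 0.389 to 1.497; limma, adjusted p = 0.499) or 0.59 without replicate 1. RFX3, a regulator of ciliary genes, was at 5.45, 5.33 and 5.25 with Jak2-10 and 4.49, 4.63 and 4.95 with Jak2-9. The groups did not overlap and the difference was 0.65 ± 0.18 (SE), while a dimmer probe set, at which no array exceeded 4.63, gave -0.08 ± 0.10 (SE). CTTNBP2NL (0.41), ANKRD36B (0.33) and ZNF721 (0.33) were also lower with Jak2-9, and the Jak2-10 and Jak2-9 arrays did not overlap for ANKRD36B and ZNF721. AGAP4 was at 0.13, or 0.41 at its dimmer probe set. Both ANKRD36B and AGAP4 have close paralogs, so the copy measured is uncertain.

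SNHG3, which hosts small nucleolar RNAs, was at 5.66, 5.92 and 5.67 with Jak2-10 and 5.68, 6.13 and 5.52 with Jak2-9. The ranges overlapped, with a difference of -0.03 ± 0.16 (SE; -0.38 to 0.33). SLC35E1 differed by 0.11 (-0.20 to 0.41) with no overlap of its arrays. Ranges overlapped for the GABA-B receptor gene GABBR1 (0.07, -0.45 to 0.58), DBF4B, an activator of the replication kinase CDC7 (-0.05, -0.28 to 0.19), and CROCCP2 (0.09, -0.19 to 0.36). RSRP1 differed by 0.14. The scaffold protein MPDZ differed by 0.27 at its brighter probe set and by 0.75 ± 0.21 (SE) at the other, or 0.08 and 0.50 without Jak2-9 replicate 1. Without that array GABBR1 was at 0.30, DBF4B at -0.13, CROCCP2 at 0.01, SNHG3 at -0.08 and RSRP1 at 0.09. At a dimmer probe set SLC35E1 was at -0.12. Read at the brightest probe set of each gene, for 13 of the 15 the interval excluded a 2-fold difference between hairpins and for 8 a 1.5-fold difference. ZNF236, a zinc finger protein outside the 15, lay above the controls with both hairpins at its brightest probe set, at 9.43, 9.60 and 9.30 with Jak2-10 and 11.01, 10.20 and 9.35 with Jak2-9, overlapping, with a difference of -0.74 ± 0.37 (SE; -1.54 to 0.05), or -0.33 without Jak2-9 replicate 1. At its other 2 probe sets the hairpin and control ranges overlapped, and the hairpins differed by 0.04 and 0.10.

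**Figure D4:**
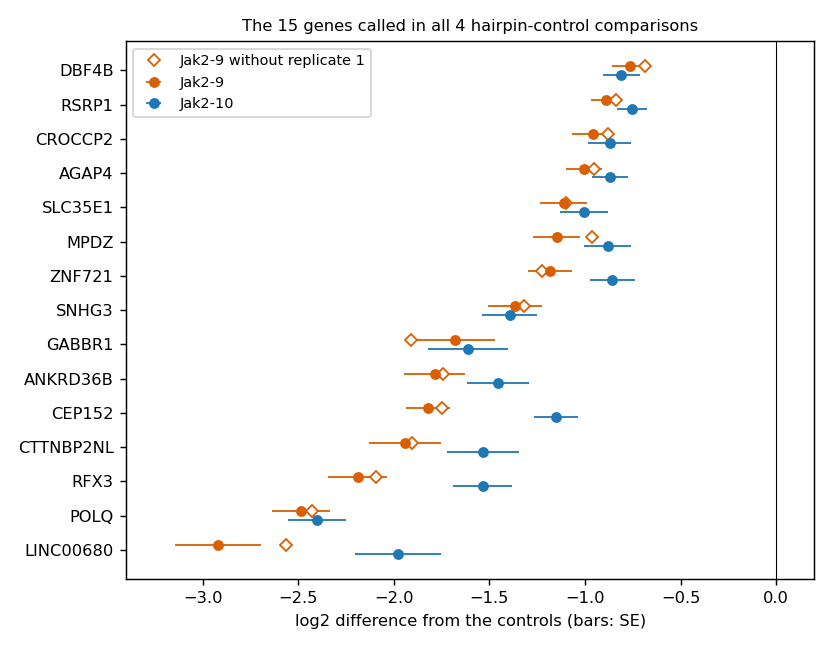
The log2 difference from the 6 control arrays is plotted for the 15 genes called in all 4 hairpin-control comparisons, with Jak2-9 and Jak2-10 as filled points, SE bars, and an open diamond for Jak2-9 without replicate 1. POLQ, SNHG3 and DBF4B have nearly equal values with both hairpins, and LINC00680, RFX3 and CEP152 lie further from the controls with Jak2-9.

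No gene was called between the hairpins, so the position of the controls was described among genes of low unadjusted p. Among the 1174 genes at an unadjusted p under 0.05 the control mean was nearer to the Jak2-10 mean for 1018 (86.7%), against 69.2% of all genes. Without Jak2-9 replicate 1 it was nearer for 341 of 506 (67.4%), against 58.5% of all genes. The controls were not used to pick these genes beyond the shared estimate of spread, and GFP alone or Luc alone as the control level gave 1006 and 1005 of the 1174. Genes picked for a large difference tend to be those where the less certain mean strayed, and Jak2-9 held the array that stood apart. How far that set the position of the controls was not tested. Jak2-9 minus the controls called 367 genes (3.07%) and Jak2-10 minus the controls 82 (0.687%), but a gene past the threshold with 1 hairpin only is not thereby different between hairpins, and the direct comparison called none. The control probe set for Alu repeats, which are found in many introns and untranslated regions, was at 14.10 ± 0.08 on the Jak2-10 arrays and 14.01 ± 0.10 on the Jak2-9 arrays (SD, n = 3 per group), against 14.61 ± 0.08 in the controls (SD, n = 6). The ranges of the hairpins overlapped there (exact two-sided permutation p = 0.20). The 5′ control probe set for 18S ribosomal RNA was at 12.53 ± 0.08 on the Jak2-10 arrays and 12.14 ± 0.17 on the Jak2-9 arrays (SD, n = 3 per group), without overlap (exact two-sided permutation p = 0.10), against 10.85 ± 0.49 in the controls (SD, n = 6). At the 3′ and middle probe sets of 18S the hairpins differed by 0.42 and 0.26 and overlapped (exact two-sided permutation p = 0.50 and 0.40). The part of these in the differences was not tested.

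Gene lists chosen for this cell line and treatment, with earlier results of these data known, were described by their counts and medians. In all 31 lists 0 members passed the threshold in either direction, with or without Jak2-9 replicate 1. Of 989 distinct genes measured, 124 (12.5%) had an unadjusted p under 0.05, against 9.83% of all genes, and 44 (4.45%) without the array, against 4.24% of all genes. For 981 the interval excluded a 2-fold difference. List medians lay between -0.16 and 0.11 with 12 arrays and between -0.17 and 0.03 without the array. Counts of members above and below 0 are read against all genes, of which 59.5% lay below 0 with 12 arrays and 59.4% without the array. Jak2-10 replicate 3 was kept in every list value. Over all genes its median difference from the control mean was -0.04, against 0.041 and 0.042 on the other Jak2-10 arrays. Leaving out that array as well as Jak2-9 replicate 1 gave a median hairpin difference of 0.002 over all genes. The part of Jak2-10 replicate 3 in the list medians was not tested. Below, 2 values joined by "then" are the one with all arrays and the one without Jak2-9 replicate 1.

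Signalling lists held no called member. With all arrays 8 of 25 JAK-STAT targets lay above 0 and 17 below, a share near that of all genes. Without Jak2-9 replicate 1 the counts were 5 and 20, where 59.4% of all genes lay below 0. The median was -0.13, then -0.04. SOCS3, a feedback inhibitor of JAK kinases, was at 5.11, 5.31 and 5.30 with Jak2-10 and 5.59, 5.45 and 5.43 with Jak2-9, a difference of -0.25 ± 0.10 (SE). Its dimmer probe sets gave -0.152 and -0.012. GFI1B, a repressor needed for red cell and platelet formation, was at 9.59, 9.66 and 9.55 with Jak2-10 and 9.82, 9.92 and 9.78 with Jak2-9. Read at the brightest probe set, SOCS3 and GFI1B were higher on every Jak2-9 array, and GFI1B kept its difference of -0.24 without replicate 1 (-0.25). Among 28 JAK-STAT components the median was -0.02, then -0.03. STAT6 was at -0.42, then -0.28, and IL2RG, the common gamma chain, at -0.29, then -0.18. A dimmer STAT6 probe set gave -0.065, then 0.165. ERK output genes had a median of -0.08, then -0.06, with FOS at -0.32, then -0.31, and ETV5 at -0.34, then -0.41. FOS was dim, at or below 4.65 on every array. The dimmer ETV5 probe sets gave -0.098, then 0.045, and -0.166, then -0.247. NF-kB and cytokine genes had a median of -0.07 in both fits, with the inhibitors NFKBIE at -0.35, then -0.25, and NFKBIB at -0.23, then -0.14. FOXO targets had a median of -0.01, then -0.02, with KLHL24 at 0.34 in both fits. The pocket protein RBL2 was at 0.40 in both fits, and a second probe set of like level gave -0.10. p53 targets had a median of -0.08 in both fits, with the death receptor FAS at 0.25, then 0.26, and PLK2 at -0.23, then -0.27. PLK2 was dim as well, at or below 4.49 on every array. The BCL2 family had a median of 0, then -0.02, with BCL2L13 at -0.41, then -0.34, and BID at -0.34, then -0.15. For BCL2L13 all Jak2-9 arrays, 6.84 to 7.09, lay above all Jak2-10 arrays, 6.49 to 6.62.

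Lists that bear on hairpins as small double-stranded RNAs were looked at separately. Of 38 interferon and double-stranded RNA response genes 15 lay above 0 and 23 below (median -0.04, and -0.01 without Jak2-9 replicate 1). IRF9, the DNA-binding subunit of the interferon-activated complex, was at -0.33, then -0.21, and IFIH1, a sensor of double-stranded RNA, at 0.37 (0.12 without the array). Of 17 genes of the small RNA machinery 10 lay above 0 and 7 below. Their median of 0.11 was the highest of the lists and was -0.02 without Jak2-9 replicate 1. TUT4, which adds uridines to precursor microRNAs, was at 8.36, 8.09 and 7.91 with Jak2-10 and 6.53, 7.94 and 8.004 with Jak2-9. Only replicate 1 was apart, and the difference went from 0.62 to 0.14 without it. TARBP2, a partner of Dicer, was at -0.39 and -0.10.

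Lineage lists held no called member. Erythroid genes had 8 members above 0 and 27 below (median -0.13, and -0.07 without Jak2-9 replicate 1). CA2, carbonic anhydrase 2, was at 8.84, 8.95 and 8.35 with Jak2-10 and 9.06, 9.31 and 8.98 with Jak2-9. The groups did not overlap, and the difference of -0.40 was -0.43 without the array. PPOX, an enzyme of haem synthesis, was at -0.37, or -0.17 without the array. Megakaryocyte and platelet genes had 12 above 0 and 23 below (median -0.10, then -0.04), a share near that of all genes, with SELP (P-selectin) at -0.30, then -0.24, and RAB27B, a GTPase of platelet granules, at 0.29, then 0.33. A second RAB27B probe set of like level gave 0.18, then -0.08. Haematopoietic transcription factors had a median of 0.02, then -0.03, with the erythroid factor KLF1 at -0.31 (-0.14 without the array). Monocyte and granulocyte genes had a median of -0.06, then 0.01 (ELANE 0.33, MNDA 0.20), and lymphoid genes of -0.06, then -0.04 (CD8B -0.32, KLRD1 0.24); on every array CD8B was at or below 5.12, ELANE at or below 4.76, and MNDA and KLRD1 at or below 4.65.

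Proliferation lists held no called member. G1/S and DNA replication genes had 13 above 0 and 30 below, then 8 and 35 (median -0.11, then -0.09). The DNA ligase LIG1 was at -0.31, then -0.20, and the cyclin CCNE2 at 0.47, then 0.22. G2/M and mitosis genes had 14 above 0 and 26 below, then 6 and 34 (median -0.06, then -0.07). The kinase AURKB was at -0.34, then -0.20, and the kinesin KIF2C at -0.21, then -0.17. In both lists Jak2-10 replicate 3 had the lowest median difference from the control mean, -0.114 for G1/S and -0.1 for G2/M. DNA repair genes had 22 above 0 and 16 below, and 9 and 29 without the array, with BRCA1 at 0.41, then 0.17, and XRCC3 at -0.36, then -0.21. Histone genes had a median of -0.06, then 0.03, with H2BC6 at -0.27, then -0.20, and H2BC12 at -0.24, then -0.13. MYC and ribosome biogenesis genes had a median of -0.13, then -0.08. POLR1C, a subunit of RNA polymerases I and III, was at -0.41, then -0.22, and PPAN at -0.32, then -0.12.

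With 12 arrays the metabolic lists had the lowest medians, and without Jak2-9 replicate 1 this held for glycolysis alone. Cholesterol and fatty acid synthesis had 7 above 0 and 20 below (median -0.16, and -0.08 without Jak2-9 replicate 1). SREBF1, a master regulator of lipid synthesis genes, was at 6.37, 5.94 and 6.14 with Jak2-10 and 7.09, 6.62 and 6.44 with Jak2-9. MVD, the mevalonate decarboxylase, was at 5.93, 6.24 and 5.82 with Jak2-10 and 6.88, 6.32 and 6.32 with Jak2-9. All Jak2-9 arrays were higher for both genes, with differences of -0.57 and -0.51, or -0.38 and -0.32 without replicate 1. Glycolysis and hypoxia response had 5 above 0 and 27 below in both fits, with medians of -0.14 and -0.17, the only list among the metabolic ones whose median was no smaller without the array. The median difference of this list from the control mean was 0.045, 0.145 and -0.14 on the Jak2-10 arrays. On the Jak2-9 arrays it was 0.121, 0.236 and 0.089, so the hairpins overlapped and Jak2-10 replicate 3 was lowest. PFKM, the muscle phosphofructokinase, was at 9.86, 9.86 and 9.67 with Jak2-10 and 10.08, 10.14 and 10.00 with Jak2-9, a difference of -0.28 that was -0.27 without the array. GPI, the phosphoglucose isomerase, was at -0.31 and -0.18. Respiratory chain and ATP synthase genes had 2 above 0 and 66 below (median -0.16, and -0.05 without the array), with NDUFV1 and NDUFS7 of complex I at -0.33 and -0.44, or -0.21 and -0.28 without it.

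The remaining lists held no called member either. The amino acid and ER stress list had a median of -0.09, then -0.05. PHGDH, which starts serine synthesis, was at -0.42, then -0.22, and WARS1 at -0.28, then -0.18. A dimmer WARS1 probe set gave -0.075, then -0.049. NRF2 and oxidative stress genes had a median of -0.13, then -0.04, with PGD at -0.23, then -0.21, and GPX1 at -0.25, then -0.16. Heat shock genes had a median of -0.06, then -0.08. HSF1, their main activator, was at -0.43, then -0.18, while a dimmer probe set gave 0.10. CRYAB was at 0.23, then 0.21, and was dim, at or below 4.67 on every array. Lysosome and autophagy genes had a median of -0.12, then -0.06, with GABARAP at -0.31, then -0.21, and GLB1 at -0.34, then -0.20. Adhesion and cytoskeleton genes had a median of -0.13, then -0.08. Of 49 members 8 were lower with Jak2-10 at an unadjusted p under 0.05, against 7.33% of all genes. Without Jak2-9 replicate 1 the count was 3, against 2.4% of all genes. With all arrays the same count was 8 of 35 erythroid, 8 of 32 glycolysis and 10 of 68 respiratory chain genes. Without Jak2-9 replicate 1 these counts were 1, 3 and 1, again against 2.4% of all genes. The galectin LGALS1 was at -0.33, then -0.24, and the integrin ITGB5 at -0.35, then -0.27, with 0.10 at one of its dimmer probe sets. Cytosolic ribosomal proteins had 4 members above 0 and 65 below, then 9 and 60, all with intervals within 1.5-fold in the fit of 12 arrays (median -0.09, then -0.06; RPL10 -0.21, RPS15 -0.21). Their median difference from the control mean was 0.039, 0.027 and -0.144 on the Jak2-10 arrays and 0.139, 0.011 and 0.043 on the Jak2-9 arrays. Jak2-10 replicate 3 was thus lowest, and the other arrays of the hairpins overlapped. Housekeeping genes had a median of -0.06, then -0.07, with POLR2A at -0.36, then -0.16. SR protein, splicing kinase and speckle genes had 25 above 0 and 13 below, turned to 14 and 24 without Jak2-9 replicate 1. CCNL1, a cyclin of nuclear speckles, was at 8.46, 8.52 and 8.20 with Jak2-10 and 7.46, 8.02 and 8.22 with Jak2-9. The groups overlapped by 1 array, and the difference of 0.49 was 0.28 without replicate 1; SRPK2, a kinase of SR proteins, was at 0.31 and 0.19. Among 8 long noncoding and snoRNA host transcripts SNHG20 was at -0.29 and -0.30. Its Jak2-10 arrays, 4.80 to 5.14, lay below its Jak2-9 arrays, 5.16 to 5.42.

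**Figure D5:**
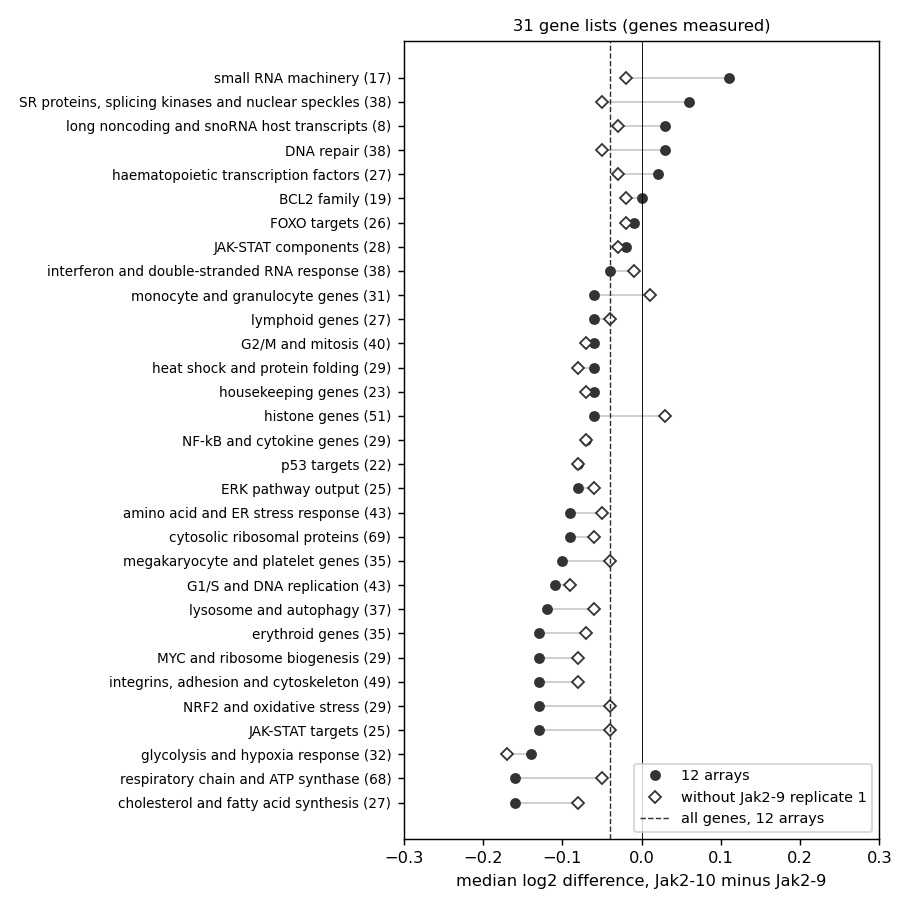
The median Jak2-10 minus Jak2-9 log2 difference is plotted for each of 31 gene lists with all 12 arrays (filled) and without Jak2-9 replicate 1 (open), with the number of genes measured in brackets and a dashed line at the median of all genes (-0.04). The highest medians with 12 arrays, those of the small RNA machinery and splicing lists, lie near the dashed line without that array, and the glycolysis list has the lowest median there (-0.17).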

How the data were processed

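The table the authors deposited holds 1 linear intensity for each probe set on 12 one-colour Affymetrix arrays; RMA is named in the submitters' processing notes, per the labels (version not given in the sources used here). RNA was extracted with Trizol and 20 ng was amplified, per the labels' protocols. Values ranged from 11.2 to 36233.5 with array medians of 44.9 to 49.1; log2 was taken with no pseudocount. Quantile normalization within RMA makes the arrays' distributions alike and compresses differences of dim probe sets. Detection calls were not used.

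Of 22930 probe sets 524 controls were left out; 19415 of the rest had 1 gene symbol in the platform annotation, 125 several and 2866 none. Of the 19415, 19290 matched the RefSeq table by Entrez identifier. Each of 11940 genes was read at its probe set of highest mean. Other probe sets are given for only some of the genes named. Group means of all 12 arrays were fitted with limma 3.58.1 in R 4.3.3, tested beforehand on simulated data, with Benjamini-Hochberg adjusted p-values over all genes. Array number limits the precision.

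Genes named were JAK2, the largest called differences (none) and, for each list, the 2 members of lowest p; all others were chosen after their values were seen. Members and lists were chosen with earlier results of these data known. Alternatives covered scaling, filtering, probe sets, variance model, weights, blocks and each array left out.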

Additional observations from a re-analysis of the deposited data

How the results depend on the processing

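All 45 fits, with 12 arrays or without Jak2-9 replicate 1, called 0 genes, and so did a 2-fold minimum; the lowest adjusted p of any was 0.0567, for PAIP2B with array weights. Same-numbered Jak2-9 and Jak2-10 arrays had deviations from their group means that correlated across genes at -0.12, 0.11 and -0.12. Same-numbered GFP and Luc arrays gave 0.18, 0.01 and 0.07. Jak2-9 replicate 1 enters every Jak2-9 deviation through the group mean, so these values cannot decide whether same-numbered arrays shared a batch. A replicate block left the count of called genes at 0 and the JAK2 difference at 0.18, while genes at an unadjusted p under 0.05 went from 1174 to 1334. The genes at an unadjusted p under 0.05 moved more. Those higher with Jak2-10 (299) became 677 of 22406 probe sets (3.02%, against 2.5% of genes) with each probe set on its own and 124 with only the JAK2 hairpin arrays, and ranged from 175 to 695 on leaving out 1 array. Those lower (875) became 446 with array weights and 277 with only the hairpin arrays, and ranged from 287 to 1547. The extremes came without Jak2-10 replicate 2 and Jak2-9 replicates 1 and 3; without Jak2-10 replicate 3 the balance was 422 higher and 378 lower. The JAK2 difference ranged from -0.032 to 0.327 over single arrays left out and was below 0 only without Jak2-9 replicate 1. Among the genes named, 4 near 0 changed sign on leaving out 1 array: CROCCP2 ranged from -0.013 to 0.238, DBF4B from -0.126 to 0.008, GABBR1 from -0.067 to 0.299 and SNHG3 from -0.154 to 0.148. The cause of these moves was not tested. With Jak2-9 replicates 2 and 3 only, the spread of that group rests on 2 arrays and on the spread shared with the other groups.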
